A study of Mus musculus with 12 samples.

Results

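The numbered zinc finger protein genes are the mouse genes named Zfp with a number. They were followed through 4 stages of terminal erythroid differentiation, proerythroblasts (Pro), basophilic (Baso), polychromatic (Poly) and orthochromatic (Ortho) erythroblasts. A gene was included when its symbol began with Zfp and a digit, was not marked as a pseudogene by the ending -ps, and reached 1 FPKM (fragments per kilobase of transcript per 1e6 mapped fragments) in at least 3 of the 12 libraries. Of 386 numbered Zfp genes in the table, 257 passed, out of 12994 genes of all kinds that passed the same filter, and 129 did not. The genes nearest to the limit were Zfp976, Zfp229 and Zfp948 inside it, where the FPKM of the library ranked 3 was 1.02, 1.03 and 1.06, and Zfp119a, Zfp831 and Zfp870 outside it, at 0.973, 0.984 and 0.987. Of the 257 genes, 194 reached 1 FPKM in all 12 libraries, and 3 passed through their Pro libraries alone. The rule reads the symbol, so it also took 2 genes annotated as transcribed pseudogenes, Zfp125 and Zfp783, and the antisense gene Zfp335os, and the other 254 code for proteins. Zfp335os overlaps the start of Zfp335 on the other strand, and since the sources used here do not say whether the counting used strand, the values of these 2 genes are uncertain.

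Erythroblasts were sorted from bone marrow taken from wild-type male C57BL/6 mice aged 8 weeks, with 3 libraries for each stage. Cells bearing CD45, CD11b or GR1 were removed, and the stages were separated by Ter119, CD44 and cell size. The labels do not say whether the 3 libraries of a stage came from separate mice, so the p-values measure the spread between libraries, which may be technical. Ortho replicates 2 and 3 were assigned by their titles, since their cell type label names only erythroblasts.

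Most proteins of this kind carry C2H2 zinc fingers, small folds held by a zinc ion that read DNA bases one after another, and many also carry a KRAB box. The KRAB box recruits TRIM28, which brings histone methylation and HP1 proteins to transposable elements and imprinted loci and silences them. Many of these genes lie in tandem arrays of near relatives. The number in the name is an order of discovery and not a family, so that RNA-binding proteins such as Zfp36, which has CCCH fingers, share the name.

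The libraries had the erythroid course of transcripts. The summed FPKM of the erythroid markers rose from 25170 ± 6428 in Pro to 185447 ± 16456 in Ortho (SD, n = 3). Most of this sum was globin, with Hba-a1 at 12797 and 92608 and Hbb-bs at 9970 and 86860 in Pro and Ortho. Hemoglobin took 8.45%, 35.1%, 36.6% and 49.6% of all FPKM at the successive stages from Pro to Ortho. Transcripts of other marrow cells were present in every library. The summed FPKM of 10 neutrophil markers lay at 7350 to 9160 for Pro, 12623 to 14743 for Baso, 16199 to 19185 for Poly and 14440 to 17855 for Ortho. In Ortho against Pro, 5 of 12 erythroid genes were called higher and 3 lower, 3 of the 10 neutrophil genes and 6 of 8 B cell genes were called higher, 2 of 4 tested macrophage genes were called higher and 3 of 7 megakaryocyte genes were called lower, while 0 of 3 tested T and NK cell genes were called and Cd3e was at 0 in Pro and Ortho. The B cell markers summed to 80.2 ± 26.1 in Pro and 189 ± 25.3 in Ortho, the macrophage markers to 31.9 and 67.6, the T and NK cell markers to 25.4 and 39.1 (of which Nkg7 alone gave 23.6 and 35.1), and the megakaryocyte markers to 103 and 44.8. Their part in the results on zinc finger genes was not tested, and in bulk RNA fewer cells of a type and less RNA per cell cannot be told apart.

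The numbered Zfp genes were expressed at low levels in these cells. Their mean FPKM over the 12 libraries ranged from 0.714 to 134.8 with a median of 3.68, against a median of 8.96 for the 12737 other genes, and 62.6% of them had a mean under 5 against 35.2% of the others. Together they accounted for 0.384% ± 0.003, 0.274% ± 0.0072, 0.287% ± 0.0058 and 0.231% ± 0.0117 of all FPKM at Pro, Baso, Poly and Ortho (SD, n = 3). With hemoglobin left out of the total, the same shares were 0.419%, 0.422%, 0.453% and 0.458%, so the direction between Pro and Ortho turned with the denominator.

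The 5 most abundant were Zfp36l2, Zfp36, Zfp207, Zfp91 and Zfp367. Zfp36l2, which binds AU-rich elements and promotes mRNA decay, was at 99.0, 124 and 116 FPKM in Pro, 100.5, 131 and 123 in Baso, 133, 159 and 152 in Poly, and 146, 167 and 168 in Ortho. The Pro and Ortho libraries did not overlap, whereas the ranges of Pro and Baso did. Zfp207, a microtubule-binding protein of the mitotic spindle, had a Pro range of 52.3 to 92.3 FPKM that covered all libraries of the other stages.

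Sequences upstream of the genes are shown first for 5 genes. They were chosen because they were called in Ortho against Pro, in either direction, and share a promoter motif. Of the 257 genes, 215 had a promoter in the RefSeq table for GRCm38.p6. The 250 bases before the start were searched on both strands for ACTACANNTCCC, the core of the element bound by Zfp143, itself one of the 257 genes, for TGACGTCA, the cyclic AMP response element, both read from the window of Zfp874a, and for AGATAA, which GATA factors bind. Motifs were chosen after promoters of changed genes had been read. In the sequences below, capitals mark ACTACANNTCCC or its reverse complement and, in the last bases before the start of Zfp874a and Zfp874b, TGACGTCA. The windows are chr13:67451625-67451874 and chr13:67484254-67484503 on the minus strand for Zfp874a and Zfp874b, and chr9:19621841-19622090, chr7:24081647-24081896 and chr11:58306819-58307068 on the plus strand for Zfp317, Zfp180 and Zfp692.
Zfp874a: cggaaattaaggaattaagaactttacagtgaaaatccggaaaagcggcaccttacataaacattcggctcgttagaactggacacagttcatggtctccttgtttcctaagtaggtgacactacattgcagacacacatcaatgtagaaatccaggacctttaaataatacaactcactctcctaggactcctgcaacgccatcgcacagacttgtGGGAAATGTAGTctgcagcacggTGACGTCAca
Zfp874b: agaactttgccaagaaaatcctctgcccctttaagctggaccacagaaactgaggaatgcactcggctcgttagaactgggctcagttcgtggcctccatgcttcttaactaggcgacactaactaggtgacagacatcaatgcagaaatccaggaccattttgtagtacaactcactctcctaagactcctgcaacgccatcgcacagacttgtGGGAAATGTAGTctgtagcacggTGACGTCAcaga
Zfp317: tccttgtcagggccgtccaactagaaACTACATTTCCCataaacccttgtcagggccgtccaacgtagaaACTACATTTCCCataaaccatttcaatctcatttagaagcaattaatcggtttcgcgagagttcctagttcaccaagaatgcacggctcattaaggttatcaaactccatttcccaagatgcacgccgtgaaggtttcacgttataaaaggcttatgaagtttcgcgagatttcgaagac
Zfp180: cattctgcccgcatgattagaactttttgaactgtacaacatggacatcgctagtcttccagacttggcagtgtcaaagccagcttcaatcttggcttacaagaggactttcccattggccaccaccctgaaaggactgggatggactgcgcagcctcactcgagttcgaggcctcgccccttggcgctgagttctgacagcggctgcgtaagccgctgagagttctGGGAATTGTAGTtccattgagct
Zfp692: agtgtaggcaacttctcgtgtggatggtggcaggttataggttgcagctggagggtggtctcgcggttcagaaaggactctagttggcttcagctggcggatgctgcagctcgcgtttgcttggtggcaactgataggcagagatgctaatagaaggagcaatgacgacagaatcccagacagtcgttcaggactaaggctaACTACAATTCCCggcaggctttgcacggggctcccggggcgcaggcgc

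Zfp874a and Zfp874b had the motif at positions -33 to -22 and -35 to -24, counted back from -1 at the last base before the start, each followed by TGACGTCA at -10 to -3 and -12 to -5. Their windows were 73.6% identical over the aligned length. Zfp317 held the motif in 2 places, at -224 to -213 and -180 to -169, Zfp180 at -23 to -12 and Zfp692 at -48 to -37. Zfp317 was called lower in Ortho, from 7.58, 5.83 and 6.51 FPKM in Pro to 2.88, 2.85 and 2.27 (log2 fold change -1.06), and so was Zfp180, from 4.33, 4.33 and 8.38 to 1.93, 1.57 and 1.83 (-1.21). The call of Zfp317 was lost without Pro replicate 1 (-0.97) or Ortho replicate 3 (-0.98), and that of Zfp180 without Pro replicate 3 (-0.94).

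The Zfp143-type motif was present in 32 of the 215 genes (14.9%), against 374 of 8685 other tested genes with a promoter (4.31%). Counted by window, it was present in 32 of their 261 windows (12.3%) and in 547 of all 32851 windows (1.67%). The last set includes genes that were not tested. Among genes with a single window it was present in 29 of 177 (16.4%) against 296 of 6950 (4.26%). Genes with a KRAB match had it in 18 of 113 cases and the rest in 14 of 102. Of the 26 genes with a promoter that were called in Ortho against Pro, 5 had it, beside 32 of the 215. Most called genes thus lacked the motif, and most genes with the motif were not called. TGACGTCA was present in 11 of the 215 genes (5.12%) against 3.01% of other tested genes and 1.55% of all windows, and AGATAA in 14 (6.51%) against 7.53% and 9.99%. The 32 genes with the Zfp143-type motif had a median FPKM of 1.97 and a median log2 fold change of -0.11 in Ortho against Pro, and the other 183 had 3.89 and -0.37. The letters describe the sequence only, since binding was not measured.

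The stage differences were tested with limma on log2(FPKM + 1) over all 12994 genes, and a gene was called when the adjusted p was under 0.05 and the log2 fold change at least 1 in size. In Ortho against Pro, 25 of the 257 genes (9.73%) were called lower and 5 (1.95%) higher, beside 23.8% and 6.33% of all tested genes. In Poly against Pro 10 were lower (3.89%) and 1 higher, beside 12.8% and 3.59% of all genes. In Baso against Pro 6 were lower (2.33%) and 0 higher, beside 8.54% and 1.82%. Counting at an adjusted p under 0.05 alone gave 114 lower and 6 higher in Baso, 109 and 23 in Poly, and 132 and 24 in Ortho. The lower genes were then 44.4% of the 257 in Baso beside 42.1% of all genes, 42.4% beside 42.7% in Poly and 51.4% beside 53.2% in Ortho, so that without the size limit the shares of falls lay close together. The higher genes were 2.33% beside 14.9%, 8.95% beside 23.3% and 9.34% beside 22.7%. The libraries of every called numbered Zfp gene did not overlap between the stages compared. The limits for a call favour such a gap, and its share among all called genes was not computed, so it adds no support.

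In Poly against Baso 0 of the 257 genes were called by limma in either direction, beside 0.0616% of all genes higher and 0.454% lower, and 5 were higher and 4 lower at an adjusted p under 0.05 alone, beside 6.58% and 5.77% of all genes. In Ortho against Poly 3 were called higher and 4 lower, beside 1.05% and 4.81% of all genes, and at an adjusted p under 0.05 alone 4 were higher and 37 lower, beside 4.43% and 21.7%. These comparisons share libraries, so their counts are not independent.

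**Figure D1:**
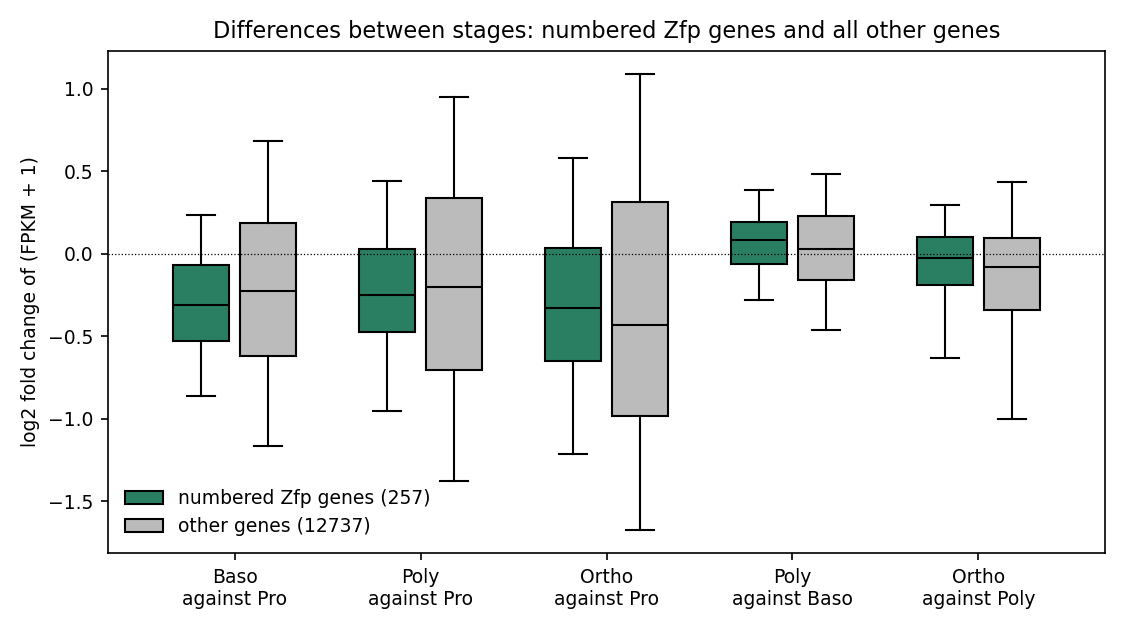
Log2 fold changes of (FPKM + 1) in 5 comparisons, for the 257 numbered Zfp genes (green) and the 12737 other genes (grey). Boxes span the quartiles, the line is the median and whiskers reach the 5th and 95th percentiles; in Ortho against Pro the quartiles of the Zfp genes were -0.65 and 0.03 and those of the other genes -0.98 and 0.31.

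The spread of these changes was narrower than that of other genes, while the medians lay close together. In Ortho against Pro the median log2 fold change was -0.33 for the numbered Zfp genes and -0.43 for the others. The medians were -0.31 and -0.23 in Baso, and -0.25 and -0.20 in Poly, against Pro. The range of the 4 stage means had a median of 0.52 on the log2 scale for the Zfp genes and 0.82 for the others, and it was 1 or more in 34 of 257 (13.2%) against 36.4%. A difference of the same sign was seen within each of 2 broad bands of level, which do not match the levels of the genes inside them, with medians of 0.48 and 0.69 among genes of mean FPKM under 5, and 0.66 and 0.92 at a mean of 5 or more. No test was made, since the genes were chosen as a list.

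The deposited scale bears on the direction. After hemoglobin genes were removed and the libraries rescaled, 10 of the 257 genes were called higher and 8 lower in Ortho against Pro. The shares of all genes were 15.3% and 8.88%. Centring on the median gave 13 higher and 8 lower, beside 16% and 9.95% of all genes. With every library set to the same sum, 3 were higher and 59 lower, beside 2.47% and 37.4%. The median of all genes was -0.43 as deposited, -0.03 without hemoglobin and -0.72 at equal sums, so the excess of falls over rises was larger at equal sums and was absent without hemoglobin or with centring. Under each of these scalings a smaller share of the numbered Zfp genes than of all genes was called lower.

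Of the 257 genes, 165 (64.2%) had their highest mean in Pro, 51 (19.8%) in Ortho, 29 in Poly and 12 in Baso. The other genes were highest in Pro in 54.6% of cases and in Ortho in 22.2%. In all, 224 genes were called in none of the 5 comparisons.

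**Figure D2:**
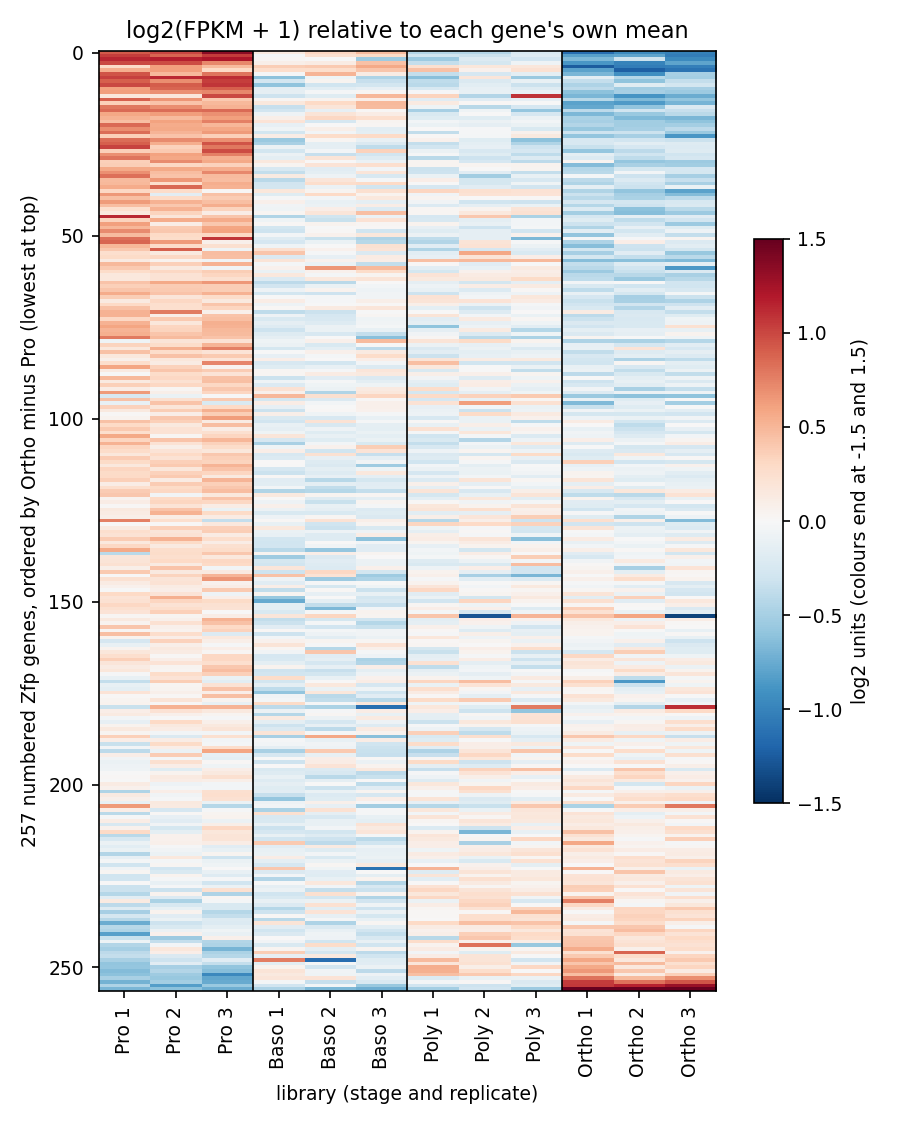
log2(FPKM + 1) of the 257 numbered Zfp genes (rows, ordered by the difference of Ortho from Pro, lowest at the top) in the 12 libraries (columns), relative to each gene's mean. The upper rows are highest in the 3 Pro libraries and lowest in Ortho, most rows are pale, and a few rows at the bottom are high in the 3 Ortho libraries alone.

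The falls differed in timing. Zfp639, Zfp316, Zfp770 and Zfp251 were called lower at all 3 later stages. Zfp639, a C2H2 protein at chr3:32510259-32520833, was at 31.9, 33.0 and 33.8 FPKM in Pro, 14.3, 14.0 and 9.41 in Baso, 9.31, 12.1 and 11.3 in Poly, and 8.46, 11.0 and 6.79 in Ortho. All later libraries were under every Pro library, and the later stages overlapped each other. Its log2 fold change against Pro was -1.34 ± 0.18 in Baso (SE, adjusted p = 6.7e-05), -1.52 ± 0.18 in Poly and -1.82 ± 0.18 in Ortho (adjusted p = 2.3e-06).

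Zfp251 and Zfp316 had most of their fall by Baso. Zfp251 was at 7.63, 7.17 and 8.14 FPKM in Pro and at 1.85 to 2.88 in the 9 later libraries, with log2 fold changes of -1.39, -1.29 and -1.30. Zfp316, a KRAB protein, was at 4.15, 4.47 and 4.44 FPKM in Pro and at 0.633 to 1.87 later, with -1.46, -1.42 and -1.45. Zfp770 was at 3.73, 3.12 and 4.21 FPKM in Pro and 0.977, 0.670 and 0.989 in Ortho, a log2 fold change of -1.32 ± 0.14. Its call in Baso (-1.07) was lost without Pro replicate 3 (-0.99) or Baso replicate 3 (-0.996). At a pseudocount of 5, which shrinks the fold changes of low genes, Zfp251, Zfp316 and Zfp770 lost their calls at all 3 stages by size, with log2 fold changes from -0.79 to -0.48 and adjusted p of 3.4e-05 at most, and Zfp639 kept them. Between Poly and Ortho none of these 4 genes was called, with log2 fold changes from -0.30 to -0.01 and adjusted p from 0.27 to 0.97.

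Zfp808, Zfp692 and Zfp410 had a lower mean at each stage than at the one before. Zfp808, a KRAB protein with 22 finger matches at chr13:62129886-62236144, was at 8.42, 8.97 and 11.8 FPKM in Pro, 4.52, 5.23 and 5.91 in Baso, 2.67, 2.66 and 3.25 in Poly, and 1.26, 1.56 and 1.47 in Ortho. No library of one stage overlapped another stage. The log2 fold change of -2.13 ± 0.13 in Ortho (adjusted p = 8.2e-08) was the largest fall among the 257 genes. Zfp692 went from 31.4, 28.1 and 31.7 FPKM in Pro to 7.99, 8.19 and 6.74 in Ortho, with -1.86 ± 0.10 (adjusted p = 3.5e-08). Its promoter window is printed above. Zfp692 lies 486 bases from Zfp672 and points toward it, at chr11:58307069-58314627 and chr11:58315114-58330339, and Zfp672 also fell, from 25.9, 18.6 and 23.4 FPKM to 7.67, 6.36 and 8.83 (-1.45 ± 0.16). Whether the counting used strand is not given in the sources used here, so reads running past one gene's end could count for the other.

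Zfp410 binds sites near Chd4, a subunit of the NuRD remodeling complex that keeps fetal globin silent, and activates it. It was at 42.1, 41.7 and 34.6 FPKM in Pro, 21.9, 22.6 and 28.3 in Baso, 15.9, 17.1 and 19.7 in Poly, and 10.8, 9.81 and 11.5 in Ortho. Each stage lay below the one before with no overlap, and the log2 fold change in Ortho was -1.78 ± 0.12 (adjusted p = 1.3e-07). Chd4 itself averaged 80.2, 55.4, 57.3 and 48.0 FPKM at the successive stages, with a log2 fold change of -0.72 in Ortho that was under the size needed for a call.

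Zfp39 and Zfp367 were called only with Ortho, against both Pro and Poly. Zfp39, a KRAB protein, was at 10.5 to 13.4 FPKM in Pro, 11.2 to 13.0 in Baso, 9.58 to 10.1 in Poly, and 2.96, 3.60 and 3.64 in Ortho. Its log2 fold change was -1.56 ± 0.11 against Pro and -1.30 ± 0.11 against Poly (adjusted p = 1.3e-07 and 2.3e-06). Zfp367 was at 45.5, 47.9 and 38.2 FPKM in Pro, 42.0, 32.1 and 36.3 in Poly, and 17.3, 12.6 and 13.8 in Ortho, with -1.53 ± 0.13 against Pro and -1.28 ± 0.13 against Poly. In Zfp367 the first 3 stages overlapped, in Zfp39 the Poly libraries lay just under those of Pro and Baso, and in both genes the Ortho libraries were far below the rest.

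Zfp91, a ubiquitin ligase, peaked in Poly. It was at 45.2, 42.6 and 39.6 FPKM in Pro, 47.1, 43.0 and 44.2 in Baso, 56.3, 57.7 and 57.6 in Poly, and 25.9, 26.2 and 25.5 in Ortho. The Poly libraries were above and the Ortho libraries below all others. The log2 fold change was 0.42 ± 0.07 in Poly against Pro (adjusted p = 0.00016, under the size for a call) and -1.11 ± 0.07 in Ortho against Poly (adjusted p = 2.1e-07). Zfp473 and Zfp689 were the other genes whose Baso or Poly mean most exceeded both ends. Zfp473 was at 0.530, 0.676 and 0.794 FPKM in Pro, 1.13 to 1.55 in Baso, 1.22 to 1.37 in Poly and 0.180 to 0.226 in Ortho, and it was not called in any comparison (-0.94 in Ortho against Poly). Zfp689 averaged 2.44, 2.41, 3.27 and 1.48 FPKM at the successive stages, with overlap of the Pro and Poly libraries.

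**Figure D3:**
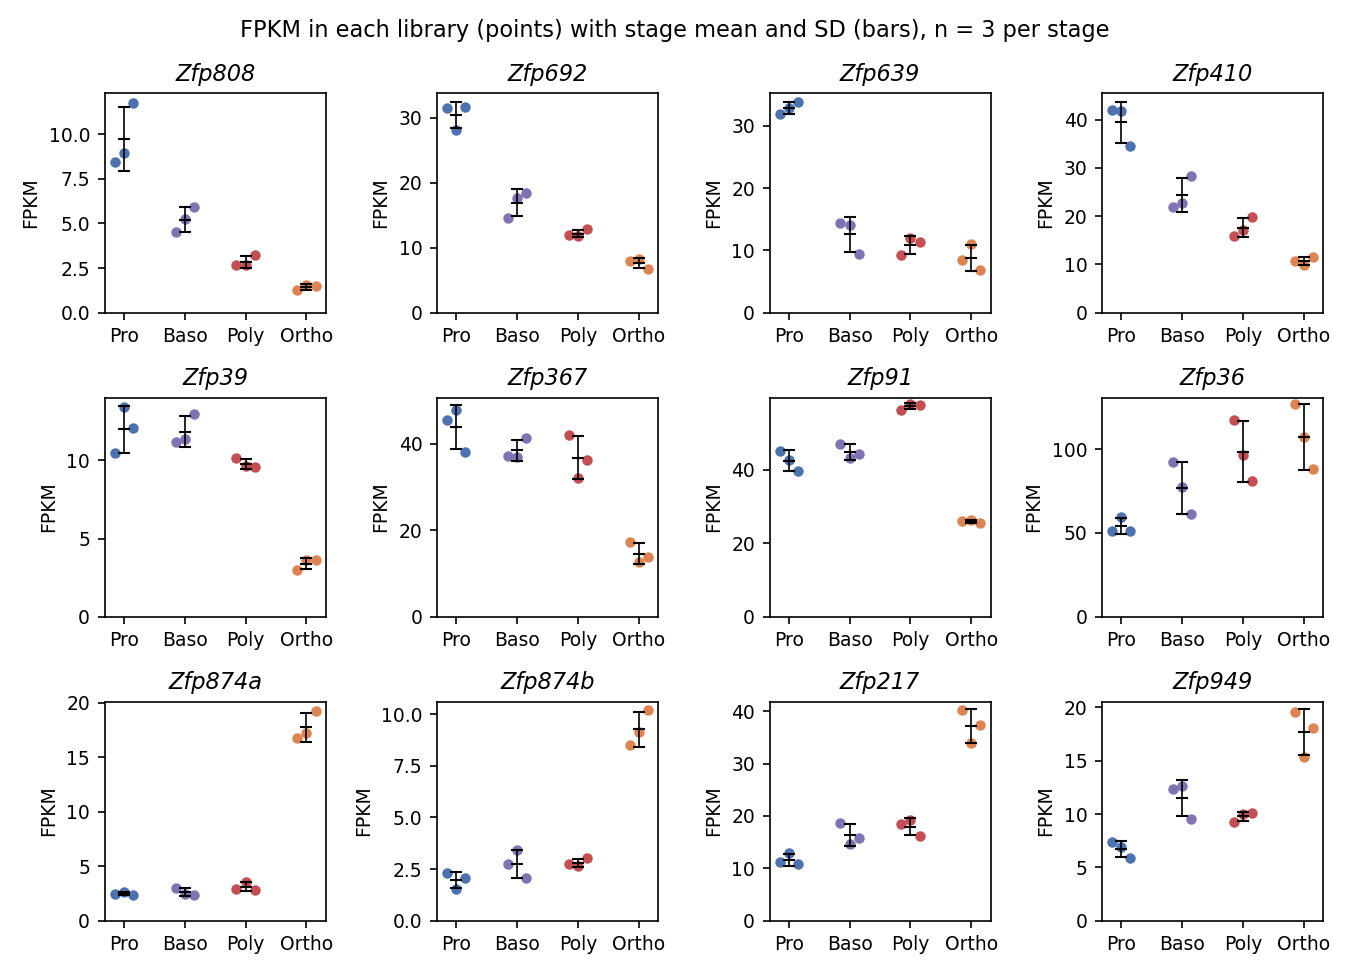
FPKM of 12 numbered Zfp genes in the 3 libraries of each stage (points), with the stage mean and SD (bars) on axes that start at 0. Zfp808, Zfp692 and Zfp410 step down at every stage, Zfp39 and Zfp367 drop in Ortho, Zfp91 is highest in Poly, and Zfp874a and Zfp874b are high in Ortho alone.

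The largest rises were those of Zfp874a and Zfp874b, neighbouring genes 19888 bases apart at chr13:67424549-67451624 and chr13:67471513-67484258. Zfp874a was at 2.46, 2.64 and 2.36 FPKM in Pro, 3.04, 2.48 and 2.36 in Baso, 2.93, 3.58 and 2.82 in Poly, and 16.7, 17.2 and 19.3 in Ortho. Zfp874b was at 2.30, 1.55 and 2.08 in Pro, 2.73, 3.41 and 2.07 in Baso, 2.72, 2.66 and 3.02 in Poly, and 8.49, 9.13 and 10.2 in Ortho. In both genes the first 3 stages lay close together and the Ortho libraries were far above them. The log2 fold change in Ortho against Poly was 2.19 ± 0.11 for Zfp874a (adjusted p = 6.6e-08) and 1.43 ± 0.14 for Zfp874b (adjusted p = 1.3e-05), and against Pro it was 2.43 ± 0.11 and 1.79 ± 0.14. Both encode proteins of 447 residues with 10 finger matches. Their transcripts were not compared, and reads that match both genes could count for either, so how the signal divides between them is uncertain.

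Zfp217, a C2H2 cofactor found with the CoREST and LSD1 demethylase complex, was at 11.2, 13.0 and 10.8 FPKM in Pro, 18.6, 14.7 and 15.8 in Baso, 18.5, 19.1 and 16.2 in Poly, and 40.3, 33.9 and 37.3 in Ortho. Every Ortho library was above all others. The log2 fold change was 1.59 ± 0.11 against Pro (adjusted p = 1.5e-07) and 1.01 ± 0.11 against Poly, and the second was no longer called without Poly replicate 3 (0.94) or Ortho replicate 1 (0.95). Zfp949, a KRAB protein, was at 7.39, 6.92 and 5.85 FPKM in Pro, 12.4, 12.6 and 9.55 in Baso, 9.24, 9.97 and 10.1 in Poly, and 19.6, 15.3 and 18.1 in Ortho, with 1.27 ± 0.12 in Ortho against Pro (adjusted p = 2.5e-06). Zfp608 was at 2.34, 2.54 and 1.62 FPKM in Pro, 4.64, 3.87 and 3.83 in Baso, 5.99, 5.71 and 5.33 in Poly, and 6.04, 4.57 and 5.51 in Ortho. Its log2 fold changes of 1.09 ± 0.13 in Poly and 1.01 ± 0.13 in Ortho lay close to the size needed for a call. The call in Poly was lost without Pro replicate 3 (0.96), and that in Ortho without Pro replicate 3 (0.88), Ortho replicate 1 (0.94) or Ortho replicate 3 (0.996). The summed neutrophil markers were higher in the same stages, at 18002 ± 1587 in Poly and 16533 ± 1833 in Ortho, and their part in these rises was not tested.

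The genes were also grouped by known roles in lists written with earlier results of these data in view. Of 33 such genes among the 257, 2 were called lower and 1 higher in Ortho against Pro, with a median log2 fold change of -0.49, beside 23.8% of all genes lower and 6.33% higher. These 2 shares are the ones to set beside every count of calls by role or class that follows for Ortho against Pro, and lists of a few genes allow no reading against them. Of the RNA decay genes 0 of 3 were called by limma. At an adjusted p under 0.05 alone 2 were higher and 1 lower, beside 22.7% and 53.2% of all genes. Zfp36, the prototype that destabilizes cytokine mRNAs, was at 51.1, 59.4 and 51.2 FPKM in Pro, 92.1, 77.6 and 61.2 in Baso, 117, 96.7 and 81.1 in Poly, and 127, 107 and 87.9 in Ortho. All later libraries were above Pro, and replicate 1 was the highest and replicate 3 the lowest in each later stage. Its log2 fold change of 0.97 ± 0.18 in Ortho (adjusted p = 0.00036) was just under the size for a call. Zfp36l2 had 0.50 ± 0.12 (adjusted p = 0.0022), and Zfp36l1, the other relative, had -0.91 ± 0.17 (adjusted p = 0.00047), from 26.6, 34.2 and 31.0 FPKM in Pro to 21.2, 13.4 and 13.8 in Ortho. Neutrophils express Zfp36 strongly, and the neutrophil markers given above were higher in the same stages. Their part was not tested.

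Of the RNA-binding genes 0 of 5 were called by limma. At an adjusted p under 0.05 alone 1 was higher and 3 lower, beside 22.7% and 53.2% of all genes. Zfp385a had 0.75 ± 0.12 in Ortho against Pro (adjusted p = 0.00015), under the size for a call, from 5.29, 7.40 and 6.36 FPKM in Pro to 11.6, 12.1 and 10.2 in Ortho. Zfp830 had -0.76 ± 0.12, Zfp638 -0.40 ± 0.12 and Zfp106 -0.37 ± 0.10, and Zfp326 had 0.15 ± 0.20 with an adjusted p of 0.51. Of the 3 ribosome genes, Zfp598, the ubiquitin ligase that senses collided ribosomes, was called lower, from 30.1, 31.3 and 32.2 FPKM in Pro through 17.4 to 19.5 in Baso and 17.6 to 18.9 in Poly to 12.2, 13.3 and 12.8 in Ortho (-1.23 ± 0.07, adjusted p = 4.4e-08). Zfp593, a factor of ribosome assembly, had -0.57 ± 0.18, and Zfp622, which acts in maturation of the large subunit, had 0.28 ± 0.31 with libraries from 5.50 to 17.5 FPKM in Baso. Zfp451, a SUMO ligase, had -0.77 ± 0.13 (adjusted p = 0.00015), and Zfp207 -0.26 ± 0.16 (adjusted p = 0.16).

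Among 7 chromatin cofactors Zfp217 was the 1 gene called. Zfp592, Zfp687, Zfp644, Zfp335 and Zfp652 had log2 fold changes of -0.63, -0.69, -0.68, -0.49 and -0.40 in Ortho against Pro with adjusted p from 1.8e-05 to 0.0058, and Zfp703 had -0.09 (adjusted p = 0.62). The listed cofactors Zfp423, Zfp462, Zfp503, Zfp521, Zfp532 and Zfp827 were under the filter. Among 6 regulators that bind promoters, Zfp410 was called. Zfp143, an activator that binds the motif described above, was at 9.33, 11.3 and 11.5 FPKM in Pro, 9.31, 10.4 and 14.0 in Baso, 11.3, 12.2 and 10.2 in Poly, and 6.86, 6.74 and 7.02 in Ortho. Its Ortho libraries were under all others, with -0.57 ± 0.13 against Pro (adjusted p = 0.0021). Zfp384 had -0.52 ± 0.07 (adjusted p = 4.4e-05), Zfp746 -0.28 ± 0.09, Zfp148 -0.16 ± 0.09 and Zfp281 -0.08 ± 0.14, the last 2 with adjusted p of 0.12 and 0.61. The lymphoid regulators Zfp318 and Zfp341 had -0.38 and -0.07.

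Of 6 listed KRAB proteins with known targets in imprinted loci, retroelements or single genes, Zfp57 and Zfp708 were under the filter. The other 4 were lower in Ortho at an adjusted p under 0.05, beside 53.2% of all genes tested. Zfp445, which guards imprints, was at 21.3, 25.1 and 25.2 FPKM in Pro and 14.7, 12.6 and 13.6 in Ortho (-0.76 ± 0.13, adjusted p = 0.00021). Zfp809, which silences retroviral DNA, was at 13.2, 9.81 and 10.2 FPKM in Pro and 6.85, 5.44 and 4.69 in Ortho (-0.86 ± 0.17). Zfp932 was at 11.6, 6.89 and 9.74 in Pro and 3.92, 4.23 and 4.38 in Ortho (-0.98 ± 0.15), and Zfp568, which represses a placental Igf2 transcript, was at 6.63, 5.48 and 3.39 in Pro and 2.02, 3.44 and 2.62 in Ortho (-0.72 ± 0.22). In Zfp568 the 2 stages overlapped. All 4 were lower than in Pro at an adjusted p under 0.05 at each later stage. The shares of all genes lower at that limit were 42.1% in Baso, 42.7% in Poly and 53.2% in Ortho. A list of 4 genes allows no reading against them. None of the 4 reached the size for a call, and between Poly and Ortho they had -0.14 to -0.03.

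Of 16 tested genes of the TRIM28 machinery, 5 were called lower in Ortho against Pro, or 31.2% beside the 23.8% of all genes, and 0 were called higher beside 6.33%, with a median log2 fold change of -0.78. The 5 were the HP1 genes Cbx1 (-1.14), Cbx3 (-1.35) and Cbx5 (-1.68), and Daxx (-1.06) and Mphosph8 (-1.06). Trim28 averaged 123, 76.5, 82.1 and 79.4 FPKM (-0.62), and Setdb1, its histone methyltransferase, 15.8, 9.73, 8.56 and 7.77 (-0.93).

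KRAB genes and the others were compared by a search of the annotated proteins. A match to the core letters of the KRAB box was found in 127 of the 254 coding genes, and a protein without a match can still carry a diverged box. Genes with a match had a median of 12 finger matches and a median FPKM of 2.29, and those without had 7 and 5.64. In Ortho against Pro 6 of 127 with a match were called lower and 1 higher, against 19 and 4 of 127 without. Among genes of mean FPKM under 5, 3 of 102 with a match and 6 of 56 without were called lower, and at a mean of 5 or more 3 of 25 and 13 of 71. All genes tested had 11.7% called lower in the first band and 30.5% in the second. Median log2 fold changes were -0.26 with a match and -0.40 without, and -0.23 and -0.10 in the lower band, where the order was the other way, and -0.35 and -0.57 in the upper band.

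**Figure D4:**
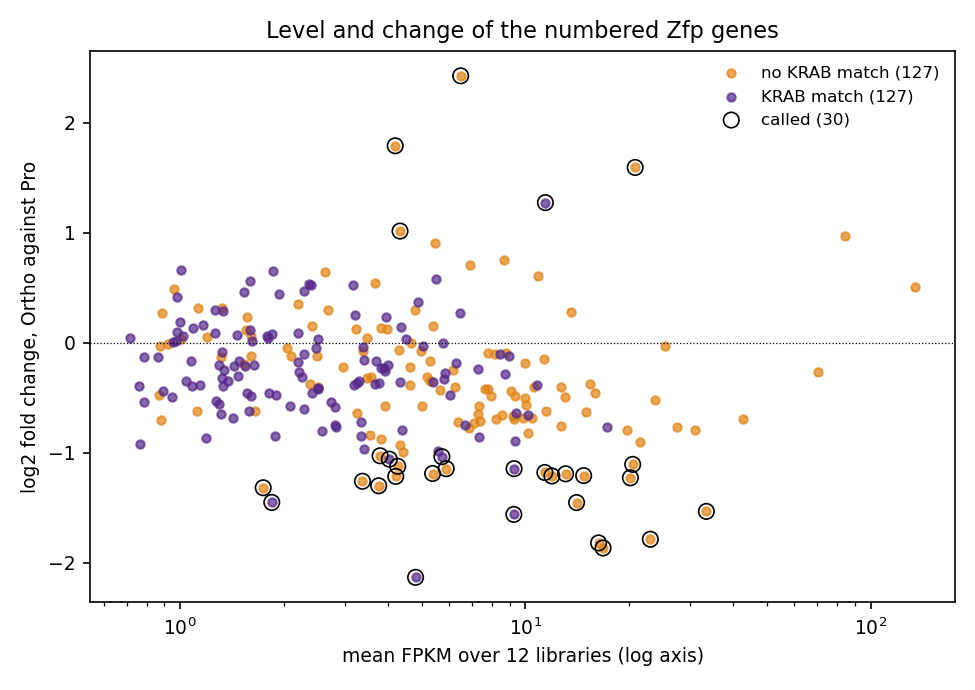
Log2 fold change in Ortho against Pro against the mean FPKM over 12 libraries (log axis) for the 127 genes with a KRAB match (purple) and the 127 coding genes without (orange), with the 30 called genes circled. KRAB genes crowd at low FPKM, and the circled falls lie mostly among genes without a match.

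The number of fingers ran from 0 to 36. Zfp142 had the most and was called lower, from 9.05 ± 1.06 FPKM in Pro to 3.53 ± 0.167 in Ortho (SD, n = 3) without overlap (-1.14 ± 0.12). The longest protein, Zfp292 with 2698 residues, had -0.22 ± 0.11 and the shortest, Zfp706 with 76, had -0.03 ± 0.07. The share called lower was 5 of 34 genes with 0 to 3 fingers, 9 of 87 with 4 to 9 and 11 of 133 with 10 or more, or 14.7%, 10.3% and 8.27% beside 23.8% of all genes. The related Zbtb genes, which join C2H2 fingers to a BTB domain, had a median of -0.37 in Ortho against Pro. Of these 34 genes 4 were called lower (11.8%) and 1 higher (2.94%), beside 23.8% and 6.33% of all genes. Of 14 Zscan and Zkscan genes 0 were called by limma, with a median of -0.43. At an adjusted p under 0.05 alone 3 of the 14 were higher and 7 lower, beside 22.7% and 53.2% of all genes.

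Neighbouring genes did not all move together. With gaps of at most 500000 bases, 110 of the 257 genes lay in 14 groups of 4 or more, 60 of all were on chromosome 7 and 36 on chromosome 17, and 97 had no such neighbour. These groups held 4 of the 25 genes called lower. In the group of 14 genes around Zfp874a and Zfp874b at chr13:67312998-67827002, the other 12 had log2 fold changes of -0.26 to 0.56 in Ortho against Pro. The largest group, 19 genes at chr17:21008903-23564238 of which 18 had a KRAB match, was split with 10 below 0 and 9 above 0 and a median of -0.03. In the group of 10 at chr17:32765496-33631779, all 10 were below 0, from -1.14 to -0.10 with a median of -0.67, and 1 was called.

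**Figure D5:**
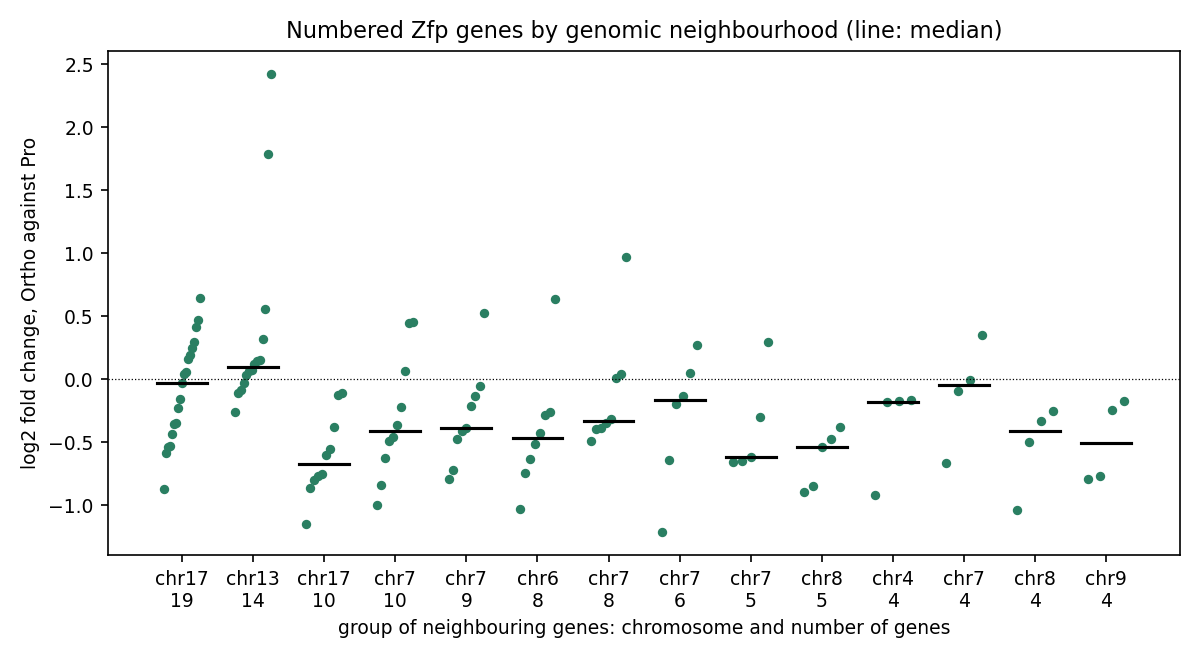
Log2 fold change in Ortho against Pro of the numbered Zfp genes in 14 groups of 4 or more neighbours (points, one for each gene, with the median as a line). The axis gives the chromosome and the number of genes, and the 2 high points in the chromosome 13 group are Zfp874a and Zfp874b at 2.43 and 1.79.

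The steadiest genes of mean FPKM of 5 or more, by the range of stage means on the log2 scale, were Zfp68 (0.10), Zfp943 (0.12), Zfp422 (0.13), Zfp865 (0.16) and Zfp871 (0.18). Zfp943 was at 4.90 to 5.03 FPKM in Pro, 4.70 to 5.66 in Baso, 4.48 to 6.05 in Poly and 4.72 to 4.92 in Ortho. For Zfp422 the equal means hid discordant libraries, since Poly replicate 2 was at 3.16 FPKM beside 12.5 and 13.4, and Ortho replicate 3 at 2.89 beside 12.7 and 14.3.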

How the data were processed

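RNA was sequenced from 12 sorted mouse libraries, 3 for each of Pro, Baso, Poly and Ortho, assigned to stages by their titles. Per the labels and methods, adaptors and poor bases were removed by the authors using Cutadapt and Trimmomatic, and the reads were aligned to mm10 with HISAT2 and counted using SAMtools and featureCounts, and the authors deposited 1 FPKM value per gene and library (versions not given in the sources used here). The labels describe Trizol and NEBNext libraries and the methods Geek lysis and KAPA libraries. FPKM is relative to the other transcripts, so more hemoglobin lowers every other value.

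FPKM are not counts, so the authors' DESeq2 test was not used. limma 3.58.1 in R 4.3.3 was fitted to log2(FPKM + 1), with a pseudocount of 1, a variance trend and all 12 libraries, for 12994 genes at 1 FPKM or more in at least 3 libraries. Two-sided p-values were adjusted over these genes by the Benjamini-Hochberg method. Of 29838 genes, 29750 were found in GENCODE M21, which gave positions and proteins, and promoters came from RefSeq (GRCm38.p6). Finger matches were C, 2 to 4 residues, C, 12 residues, H, 3 to 5 residues, H. Low values of genes with 1 transcript piled up at a step, and if this step is 1 fragment, 1 FPKM on 1 kb equals 12.2 to 19.7 fragments, depending on the library, but few values were whole multiples of it (17.5% to 19.7% within 0.05), so counts and counting error are not given. The model was tested on simulated data with normal noise, where 200 genes were given changes in Ortho larger than the size limit. Of these 194 were called, as were 2 unchanged genes. The lowest genes and changes close to the limit were not among those simulated, so the result does not extend to them.

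The genes, lists and tests were chosen with earlier results of these data known. Named were the 10 largest falls and rises in Ortho against Pro and the 3 largest in other comparisons among called genes without overlap, the 5 most abundant, all with listed roles, the 3 highest in mid-stages, the 5 steadiest, those nearest the filter, and extremes of finger number and length. Zfp317 and Zfp180 were named after their promoters were searched. Alternatives were other pseudocounts, filters and scalings, a replicate block, calls by adjusted p alone and leaving out each library. Deviations from the stage means of libraries with the same number correlated at 0.156 to 0.319 among Baso, Poly and Ortho. Between Pro and these stages they correlated at 0.00524 to 0.0968. Libraries with different numbers were not compared, and the labels name no shared mouse or day, so pairing was not established. Figures were drawn with matplotlib 3.10.9.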

Additional observations from a re-analysis of the deposited data

How the results depend on the processing

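Only 3 libraries per stage and the lack of counts limit these results, and the number of fragments behind values near 1 FPKM was not established. Called genes were refitted 1087 times under the alternatives, with 965 calls kept, 122 lost and 0 reversed in sign. With the replicate number as a block the counts were as without it, 25 lower and 5 higher in Ortho against Pro and 4 and 3 in Ortho against Poly. Leaving out 1 library changed 1 count by over 1.5 times, the 1 gene higher in Poly against Pro, which became 0 without Pro replicate 3 (range 0 to 1). Of the genes described, these calls in Ortho against Pro were lost by size without hemoglobin and with median centring, Zfp251 (-0.90 in both), Zfp142 (-0.73 and -0.75), Zfp598 (-0.76 and -0.83), Zfp180 (-0.84 and -0.82) and Zfp317 (-0.66 in both), as was Zfp91 in Ortho against Poly (-0.98 and -0.97). Zfp672 was lost without hemoglobin (-0.995), Zfp770 with centring (-0.92), Zfp949 at equal sums (0.94) and Zfp217 in Ortho against Poly at equal sums (0.83). In Poly against Pro, Zfp251 (-0.995) and Zfp692 (-0.92) were lost without hemoglobin, and Zfp410 (-0.79 and -0.88) and Zfp770 (-0.86 and -0.87) also with centring, as was Zfp770 in Baso (-0.84 and -0.78). Pseudocount 5 lost 37 calls, the most of any setting. Among the genes described these were Zfp251, Zfp316 and Zfp770 at every stage, Zfp410 (-0.98) and Zfp808 (-0.90) in Poly against Pro, Zfp608 in Poly (0.58) and Ortho (0.53), Zfp142 (-0.72), Zfp949 (0.95), Zfp180 (-0.63) and Zfp317 (-0.60) in Ortho against Pro, and Zfp39 (-0.82), Zfp217 (0.88) and Zfp874b (0.87) in Ortho against Poly.

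Counts are given as lower and higher, with the shares of all genes tested in brackets in the same order. Pseudocount 0.1 gave 20 lower in Baso (12.4%), 20 and 3 in Poly (17% and 7.39%) and 42 lower in Ortho against Pro (29.9%). Pseudocount 5 gave 1 in Baso (3.49%), 2 and 0 in Poly (6.73% and 1.49%) and 8 and 3 in Ortho (13.4% and 2.69%). In Ortho against Poly pseudocount 5 gave 2 and 1 (2.76% and 0.623%). Genes of mean FPKM of 5 or more gave 2 in Baso (10.3%), 5 and 0 in Poly (15.7% and 4.49%) and 16 and 3 in Ortho (30.5% and 7.52%). Those under 5 gave 5 in Poly (7.54%), 9 and 2 in Ortho (11.7% and 4.27%), and 0 and 1 in Ortho against Poly (1.12% and 0.625%). Fewer genes were tested in these bands. Equal sums gave 14 in Baso (14.0%), 20 and 0 in Poly (18.6% and 2.18%) and 59 and 3 in Ortho (37.4% and 2.47%). Leaving out hemoglobin gave 3 in Baso (3.24%), 3 and 4 in Poly (5.71% and 10.2%) and 8 and 10 in Ortho (8.88% and 15.3%). In Ortho against Poly it gave 2 lower (3.61%). Median centring gave, in the same order, 3 (3.15%), 5 and 4 (7.12% and 9.39%), 8 and 13 (9.95% and 16%), and 2 (3.36%). The adjusted p alone gave 114 and 6 in Baso (42.1% and 14.9%), 109 and 23 in Poly (42.7% and 23.3%) and 132 and 24 in Ortho (53.2% and 22.7%). It gave 4 and 5 in Poly against Baso (5.77% and 6.58%), and 37 lower in Ortho against Poly (21.7%).

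The median of the numbered Zfp genes less that of the others was -0.08 in Baso, -0.05 in Poly, 0.10 in Ortho against Pro, 0.05 in Poly against Baso and 0.05 in Ortho against Poly. Leaving out 1 library moved it by over 1.5 times in 4 cases, to -0.0512 in Baso without Baso replicate 1, to 0.0302 without Poly replicate 2 and 0.079 without Poly replicate 1 in Poly against Baso, and to 0.0314 in Ortho against Poly without Poly replicate 1. It was -0.12 in Baso at pseudocount 0.1, -0.0032 in Baso and 0.0201 in Poly against Baso at pseudocount 5, and 0.13 in Ortho at equal sums. Without the filter it was -0.31 in Baso, -0.25 in Poly, and reversed to -0.32 in Ortho against Pro and -0.03 (-0.0255) in Ortho against Poly. That setting kept the same 257 genes and set them beside unfiltered others. The median of all genes was then -0.0044 in Ortho against Pro, so this reversal does not bear on the sign. At a mean of 5 or more it was -0.0201 in Baso and reversed to -0.02 (-0.0245) in Poly against Baso and -0.03 in Ortho against Poly. Under 5 it was -0.17 in Baso, -0.15 in Poly, 0.0199 in Poly against Baso, and reversed to -0.0481 in Ortho against Pro. The sign of this difference thus differed between the bands in Ortho against Pro, Poly against Baso and Ortho against Poly, and is not stable there. The cause was not tested. The smaller share of calls past the size limit was seen in both bands in Ortho against Pro. At an adjusted p alone the share of falls lay close to that of all genes in the 3 comparisons with Pro.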
